A study of Rattus norvegicus with 24 samples.

Results

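The collagen and stromal matrix genes of the rat mammary gland were followed across 8 groups of gender and estradiol dose. The set comprised every probe set annotated to exactly 1 gene whose symbol names a collagen chain, other than *Col17a1*, together with 15 listed genes for other matrix proteins. It held 78 of the 31042 probe sets tested and 53 of 14217 genes. Of these, 57 probe sets stood for 40 collagen genes and 21 probe sets stood for 13 of the 15 other genes. *Tnxb* and *Thbs1* were not analysed here. The genes were chosen for what they encode, though with earlier results of these data known, and 19 of them were read by 2 or more probe sets.

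The arrays came from abdominal mammary gland pairs of Sprague-Dawley rats, an outbred strain. Subcutaneous mini-osmotic pumps delivered 17β-estradiol, the chief estrogen of the ovary. Dosing ran from weaning, at postnatal day 21, and glands were collected on postnatal day 33. The doses in the males were 0, 0.1, 1 and 10 µg/kg/day, and the females received the same 4 doses, with 3 Affymetrix arrays in each of the 8 groups. All groups carried a pump by the design text, and the groups at 0 served as controls. The labels do not say whether the arrays of a group came from separate animals, so the p-values reflect variation from array to array, and some of that may be technical.

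The extracellular matrix of the mammary stroma is built from fibrillar collagens (types I, III and V), which form the cables of connective tissue, and from collagen IV and its associated collagens XV and XVIII, which lie in and beside basement membranes around epithelium, vessels and fat cells. Fibril-associated collagens such as IX, XII and XVI sit on the surface of fibrils, collagen VI forms beaded microfilaments near cells, and small leucine-rich proteoglycans such as decorin and lumican bind fibrils and set their spacing. Tenascin-C is an adhesion-modulating glycoprotein that is deposited in the stroma of growing or remodelling organs, including the developing mammary gland. Estradiol acts through estrogen receptors in mammary epithelium and stroma and drives growth of the duct system at puberty.

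The deposited values are log values, taken here as log2, and appear centred for each probe set within each gender. The sign of centring, described with the processing, was seen in 45.7% of probe sets over female arrays and 42.3% over male arrays. *Tnc* lacked it in both genders: its values nearest 0 on either side were 0.49 and -0.59 in males. The values were taken to hold neither absolute levels nor level differences of males from females. Only differences between doses within a gender, and the difference of those differences, were read. Each value below is such a log2 value, and each fold assumes base 2. A call is an adjusted p under 0.05 from limma, fitted over all probe sets with Benjamini-Hochberg adjustment. Whether groups overlapped describes the same arrays that gave the calls, and adds no separate support to a call. The share of all probe sets without overlap is not given.

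The 250 bases before the transcription start are shown for 5 genes: the gene that rose furthest in males at 10, the pair of genes that fell in both genders, and the 2 chains of collagen IX that had an entry. They are RefSeq sequences of the rat assembly GRCr8, written 5′ to 3′ on the strand of the gene, and 38 of the 53 genes had an entry. Capitals mark the letters of any motif searched for on either strand: GGTCA, a short core of the estrogen response element, TATAAA and the GC box GGGCGG were those found in these 5.
Tnc (chr5:82476132-82476381, minus strand): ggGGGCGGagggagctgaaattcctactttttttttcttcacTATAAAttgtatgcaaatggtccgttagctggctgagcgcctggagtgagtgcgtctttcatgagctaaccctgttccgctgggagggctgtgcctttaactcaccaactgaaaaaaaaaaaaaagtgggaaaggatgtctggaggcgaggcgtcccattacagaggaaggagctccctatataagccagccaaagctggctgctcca
Col6a6 (chr8:115352162-115352411, minus strand): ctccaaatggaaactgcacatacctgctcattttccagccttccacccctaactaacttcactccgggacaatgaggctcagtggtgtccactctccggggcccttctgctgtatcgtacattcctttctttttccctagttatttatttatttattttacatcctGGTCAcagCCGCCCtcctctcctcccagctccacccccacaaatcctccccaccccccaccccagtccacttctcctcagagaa
Col15a1 (chr5:66297296-66297545, plus strand): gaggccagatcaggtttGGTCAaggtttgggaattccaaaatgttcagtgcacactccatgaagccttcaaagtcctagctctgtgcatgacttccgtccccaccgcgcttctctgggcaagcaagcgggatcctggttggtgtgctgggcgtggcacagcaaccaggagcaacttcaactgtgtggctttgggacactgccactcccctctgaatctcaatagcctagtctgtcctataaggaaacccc
Col9a1 (chr9:34081114-34081363, plus strand): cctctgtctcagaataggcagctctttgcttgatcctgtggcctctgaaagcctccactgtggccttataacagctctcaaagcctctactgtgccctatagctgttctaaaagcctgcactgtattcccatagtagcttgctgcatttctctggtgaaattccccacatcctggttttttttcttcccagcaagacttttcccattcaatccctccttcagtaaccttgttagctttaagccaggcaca
Col9a2 (chr5:139892548-139892797, plus strand): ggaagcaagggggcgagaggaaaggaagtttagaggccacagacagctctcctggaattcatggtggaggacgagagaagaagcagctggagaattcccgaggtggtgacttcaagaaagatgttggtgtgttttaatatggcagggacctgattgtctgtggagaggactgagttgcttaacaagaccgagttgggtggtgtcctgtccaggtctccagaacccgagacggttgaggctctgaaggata

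The full estrogen response element, GGTCA and TGACC set 3 bases apart, was in 0 of the 38 promoter windows and in 0.0219% of all 27457 rat windows. Its core GGTCA, which the full element contains, was in 8 of 38 (21.1%), against 35.2% of all windows, and the *Col6a6* and *Col15a1* windows were among the 8. The GC box GGGCGG was in 20 of 38 (52.6%), against 32.4% of all, and TATAAA in 5 of 38 (13.2%), against 13.1% of all. The CCAAT box CCAAT was in 10 of 38 (26.3%), against 34.3% of all, and the AP-1 motif TGANTCA in 1 of 38 (2.63%), against 6.36% of all. A match to these letters is not evidence of binding, and their absence from the window says nothing of the rest of the gene.

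Before the members, some features of the arrays bear on their values. Array medians lay between -0.018 and 0.013, and 0 pairs of arrays were identical. Liver transcripts such as albumin were high in 3 control arrays (list means of 2.28, 1.35 and 2.31 in female 0 replicate 1 and male 0 replicates 2 and 3), and the female 0.1 replicate 4 array had the widest spread of values (SD 0.485). The difference between 3′ and 5′ beta-actin probe sets, a sign of RNA quality, was -0.02 to 0.16 in males at 10, against -0.56 to -0.06 in males at 0, and -0.05 to 0.01 in females at 10, against 0.02 to 0.06 in females at 0. The same difference for GAPDH overlapped between these groups. It was -0.06 to 0.01 in males at 10, against -0.14 to -0.03 in males at 0. In females it was 0.05 to 0.14 at 10, against 0.04 to 0.09 at 0. The mean of the white adipocyte markers was -0.76 to -0.57 in males at 10, against 0.38 to 0.46 in males at 0, and -0.43 to -0.31 in females at 10, against 0.24 to 0.48 in females at 0. In whole-gland RNA, fewer cells of a type and less RNA per cell cannot be told apart.

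In males, 10 µg/kg/day of estradiol changed 38 of the 78 matrix probe sets (48.7%), 16 upward and 22 downward, standing for 16 and 17 genes. Over all probe sets tested 17.5% were called in this comparison, 7.81% higher and 9.64% lower. The counts by collagen class and of non-collagen probe sets below stand against the same shares. Among the genes that rose were tenascin-C, the 3 chains of collagen IX, *Col2a1*, *Col12a1* and *Col7a1*, and several adhesive proteins. Among those that fell were both chains of collagen I, members of collagens IV, V and VI, *Col15a1*, *Col8a1*, decorin and *Sparc*. Of the called probe sets, 4 rose and 4 fell by 2-fold or more. The median difference over the 78 was -0.14, against -0.005 over all probe sets. Fits that added the beta-actin difference as a covariate called 8 of the 78, although that difference does not overlap between males at 10 and at 0 and so takes up part of the dose. The differences of *Col1a1* 1388116_at, *Dcn* and *Fn1* were -0.35, -0.36 and 0.41 in those fits, against -0.35, -0.36 and 0.42 without the covariate, while *Col27a1* gave 0.36 and *Col8a1* -1.18, against 0.67 and -1.77. Fits without the 3 arrays rich in liver transcripts, which left 1 male control, called 18. Without male 10 replicate 11 there were 25 calls. The part of RNA quality in these changes was not tested beyond the covariate.

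**Figure D1:**
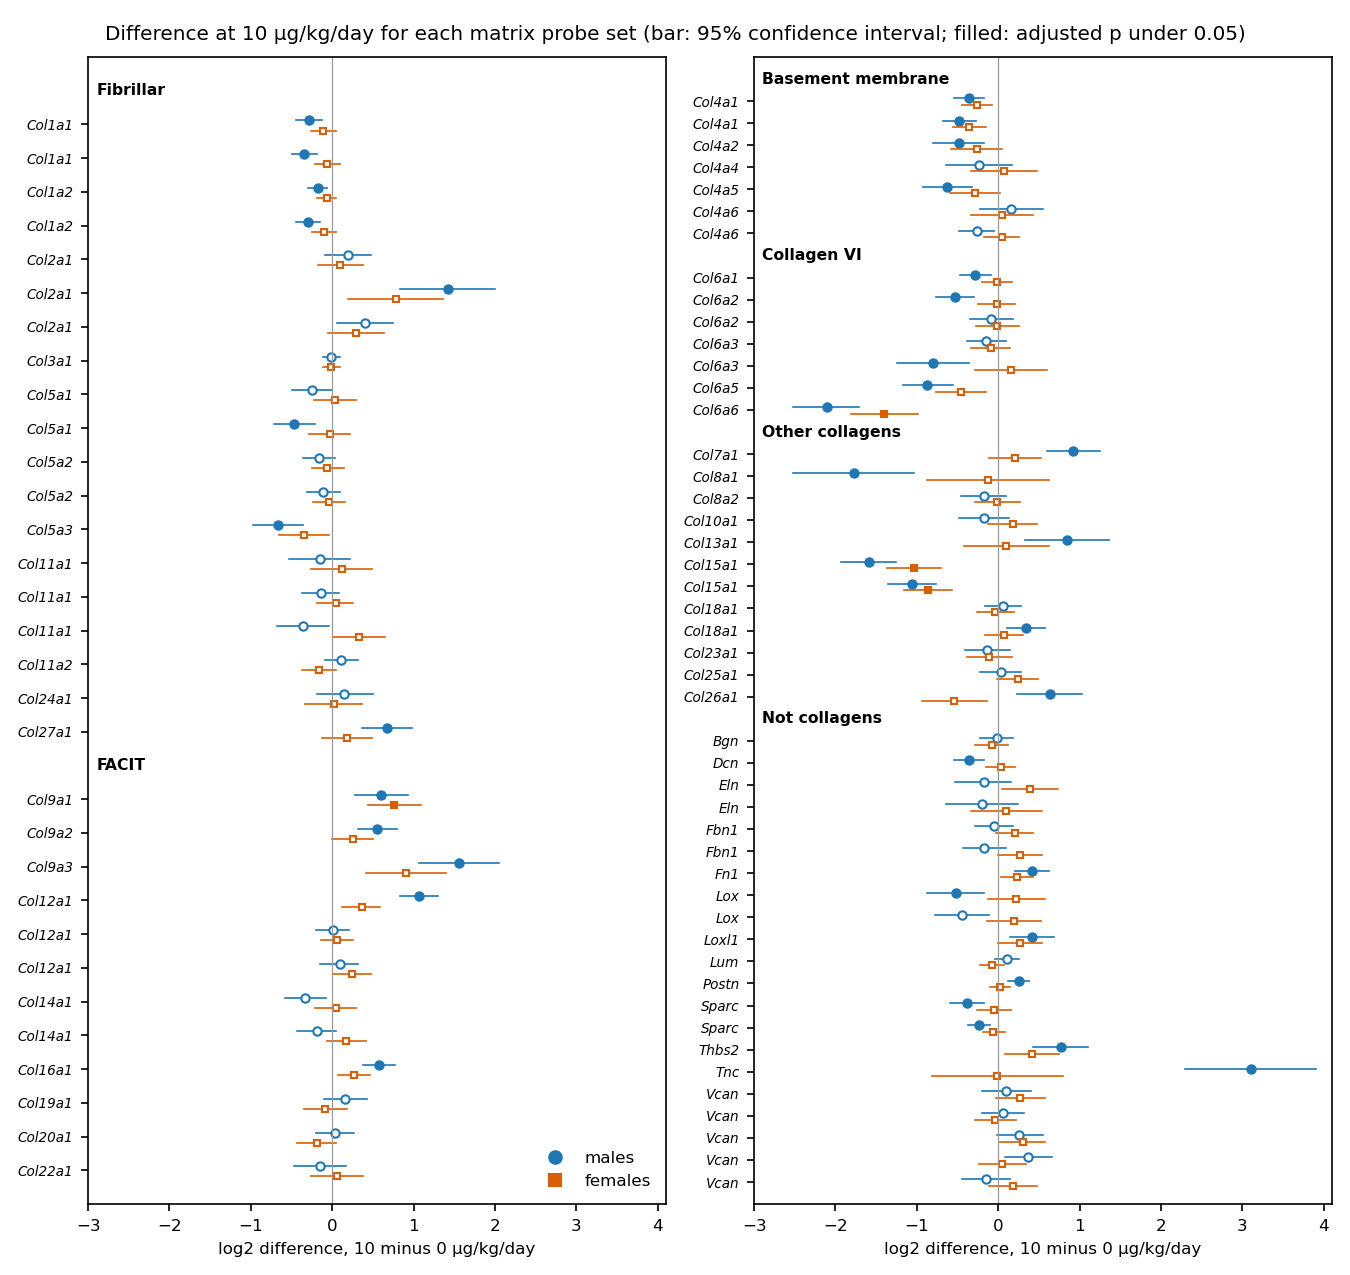
Dose differences of the 78 matrix probe sets at 10 against 0 µg/kg/day, in log2 units on the horizontal axis, for males and females, with 95% intervals from limma; filled symbols passed the threshold. Tnc lies furthest to the right at 3.10 in males and near 0 in females at -0.01, and Col6a6 lies furthest to the left in both.

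Tenascin-C (*Tnc*, 1373401_at) showed the steepest response of the set. In males its values were -1.58, -1.28 and -1.67 at 0, -0.69, -0.92 and -0.59 at 0.1, 0.91, 0.49 and 1.04 at 1, and 1.90, 1.33 and 1.54 at 10. The 4 male dose groups did not overlap and stood in dose order. The male difference at 10 against 0 was 3.10 ± 0.38 (SE, 95% interval 2.30 to 3.90, 8.56-fold, limma adjusted p 3.39e-05), and at 1 against 0 it was 2.32 ± 0.38 (adjusted p 0.00458). At 0.1 against 0 the difference was 0.77 ± 0.38 and did not pass (adjusted p 0.429). In females the values were -1.10, 0.49 and -0.34 at 10, against 0.07, -0.60 and -0.38 at 0, and the groups overlapped. The female difference was -0.01 ± 0.38 (95% interval -0.81 to 0.79, adjusted p 0.994). The male increase at 10 kept its call in every planned fit and without any 1 array, and lost it with the white adipocyte mean as a covariate (2.96, adjusted p 0.345), described with the markers.

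**Figure D2:**
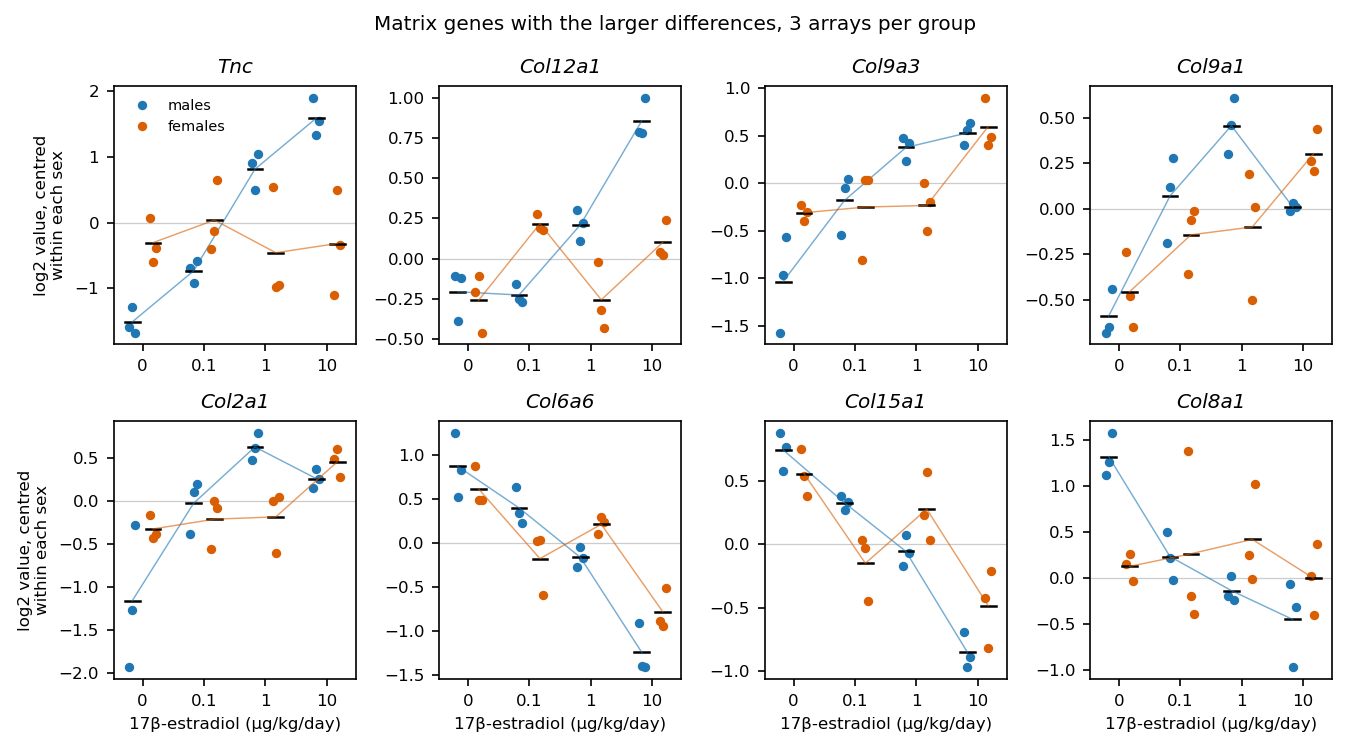
Values of 8 matrix probe sets on each array (points) and group means (black bars) against estradiol dose in µg/kg/day, for males and females, taken as centred within each gender. The 4 male groups of Tnc do not overlap, and the means of Col6a6 and Col15a1 are lowest at 10 in both genders.

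Collagen IX, a fibril-associated heterotrimer best known from cartilage, rose in males in all of its 3 chains. *Col9a3* (1377631_at) had 0.40, 0.56 and 0.63 in males at 10, against -1.57, -0.97 and -0.56 in males at 0, a difference of 1.56 ± 0.24 (2.95-fold, adjusted p 0.000223). *Col9a1* (1388973_at) had -0.01, 0.03 and 0.01 in males at 10, against -0.68, -0.65 and -0.44 in males at 0 (0.60 ± 0.16, adjusted p 0.0123). *Col9a2* (1388950_at) had 0.18, 0.29 and 0.18 in males at 10, against -0.29, -0.59 and -0.13 in males at 0 (0.55 ± 0.12, adjusted p 0.00357). None of the 3 chains overlapped between these dose groups. At 1 µg/kg/day the 3 chains had passed already, with *Col9a3* at 1.41 ± 0.24, *Col9a1* at 1.05 ± 0.16 and *Col9a2* at 0.61 ± 0.12 against 0. The *Col9a1* difference at 10 lost its call without male 0 replicate 1 (0.56, adjusted p 0.0587). It also lost it with quantile normalization (0.5, adjusted p 0.0896).

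Collagen II (*Col2a1*), the main fibrillar collagen of cartilage, was called by 1 of its 3 probe sets. That probe set (1387767_a_at) had 0.15, 0.37 and 0.25 in males at 10, against -1.93, -1.27 and -0.28 in males at 0, with no overlap but a wide spread in the controls. Its difference was 1.42 ± 0.28 at 10 (adjusted p 0.00199) and 1.78 ± 0.28 at 1 (adjusted p 0.00327). The calls of 1387767_a_at were lost with only the groups compared (limma adjusted p 0.0526 at 10 and 0.0579 at 1). The other 2 probe sets were positive but not called. Of 17 genes on a cartilage and tendon list, 10 had probe sets, 14 probe sets in all. In males at 10, 0 of these were higher and 1 was lower (*Cnmd*, -0.94, limma adjusted p 0.00298). *Snorc* was positive and not called (0.68, adjusted p 0.164). The mean of the list was -0.14 to 0.08 in males at 10, against -0.09 to 0.11 in males at 0. The part of cartilage cells in the collagen II and IX increases was not tested.

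Collagen XII (*Col12a1*), which bridges collagen fibrils, was also read by 3 probe sets that did not move together. Probe set 1370927_at had 0.79, 0.78 and 1.00 in males at 10, against -0.11, -0.39 and -0.12 in males at 0, a difference of 1.06 ± 0.11 (2.09-fold, adjusted p 9.41e-06). The other 2 gave 0.01 ± 0.10 and 0.09 ± 0.11 and were not called. The cause of this disagreement was not tested. Collagen XVI (*Col16a1*, 1390846_at), another fibril-associated type, had 0.50, 0.39 and 0.33 in males at 10, against -0.21, -0.24 and -0.06 in males at 0 (0.57 ± 0.09, adjusted p 0.000397). Of the 12 probe sets of this collagen class, 5 rose, 0 fell and 7 were not called.

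Fibrillar collagens did not move together. *Col1a1* (1388116_at) had -0.04, -0.32 and -0.23 in males at 10, against 0.10, 0.15 and 0.21 in males at 0 (-0.35 ± 0.08, 0.786-fold, adjusted p 0.00399), and its second probe set fell by 0.29. *Col1a2* (1387854_at), the partner chain of type I collagen, had -0.03, -0.22 and -0.21 in males at 10, against 0.10, 0.16 and 0.18 in males at 0 (-0.30 ± 0.07, adjusted p 0.00714). The groups of both genes did not overlap. *Col3a1* (1370959_at), whose homotrimer makes the fine fibrils of soft tissue, had 0.02, -0.03 and -0.03 in males at 10, against 0.00, -0.03 and 0.02 in males at 0. Its difference was -0.01 ± 0.05 (95% interval -0.12 to 0.09, adjusted p 0.881), and the groups overlapped. *Col5a3* and *Col5a1*, chains of the collagen that regulates fibril width, fell by 0.67 and 0.47 (1 of the 2 *Col5a1* probe sets). *Col27a1* (1375708_at), a fibrillar collagen of cartilage, rose by 0.67 ± 0.15 (adjusted p 0.00446). In all, 2 of 19 fibrillar probe sets rose, 6 fell and 11 were not called, against 7.81% higher and 9.64% lower over all probe sets.

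**Figure D3:**
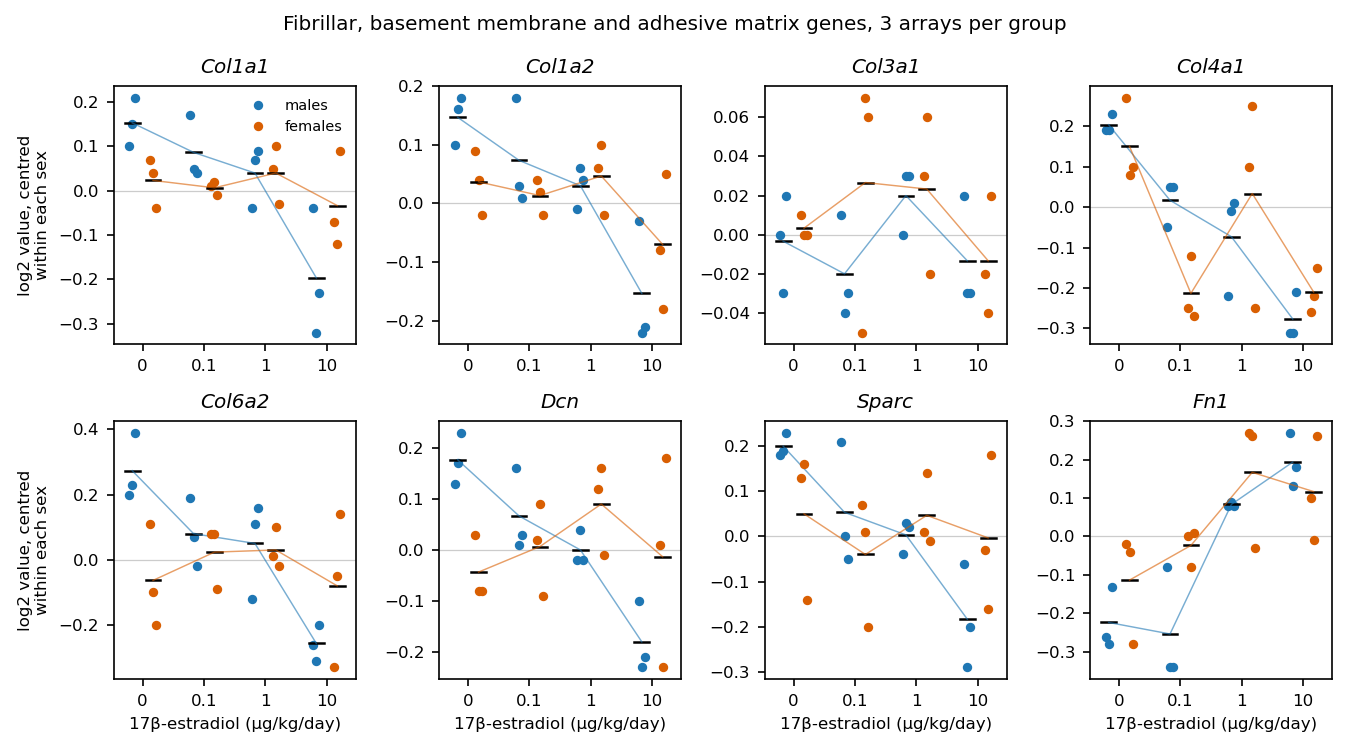
Values on each array (points) and group means (black bars) of 8 fibrillar, basement membrane and adhesive matrix probe sets against estradiol dose in µg/kg/day, taken as centred within each gender. Each panel has its own vertical scale. Col1a1, Col1a2, Dcn and Sparc are lowest in males at 10, Fn1 is highest there, and Col3a1 lies within 0.1 of 0 in every group.

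Of the 7 collagen IV probe sets, 4 fell in males, 0 rose and 3, for *Col4a4* and *Col4a6*, were not called. *Col4a1* (1373245_at), 1 of the 2 chains of the most widespread collagen IV network, had -0.31, -0.31 and -0.21 in males at 10, against 0.19, 0.19 and 0.23 in males at 0 (-0.48 ± 0.10, adjusted p 0.00253). *Col4a2*, its partner, which lies beside it in the RefSeq gene order, fell by 0.48, and *Col4a5* fell by 0.63. *Col15a1*, a proteoglycan collagen beneath the basement membranes of muscle, fat and vessels, fell furthest among the genes of basement membranes and their borders. Its probe set 1379345_at had -0.69, -0.97 and -0.89 in males at 10, against 0.88, 0.58 and 0.77 in males at 0 (-1.59 ± 0.16, 0.331-fold, adjusted p 5.61e-06), and the second, 1388939_at, fell by 1.06 ± 0.14. At 1 µg/kg/day the first was already lower (-0.80 ± 0.16, adjusted p 0.012), and it was lower again at 10 than at 1 (-0.80 ± 0.16, adjusted p 0.0372). *Col18a1*, the related collagen whose end fragment is endostatin, rose by 0.34 ± 0.11 in 1 of its 2 probe sets.

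Collagen VI probe sets fell in 5 of 7 cases and rose in 0. *Col6a6* (1391812_at) showed the deepest decrease of the whole set, with -0.91, -1.40 and -1.41 in males at 10, against 1.26, 0.53 and 0.84 in males at 0 (-2.11 ± 0.20, 0.231-fold, adjusted p 2.64e-06). The *Col6a6* groups did not overlap. It was lower at 1 than at 0 as well (-1.04 ± 0.20, adjusted p 0.00832), and lower at 10 than at 1 (-1.08 ± 0.20, adjusted p 0.0208). *Col6a5*, its neighbour in the RefSeq gene order, had -0.56, -0.40 and -0.32 in males at 10, against 0.72, 0.39 and 0.20 in males at 0 (-0.87 ± 0.15, adjusted p 0.000538). The main chains fell less: *Col6a2* by 0.53 in 1 of 2 probe sets, *Col6a3* by 0.80 in 1 of 2 and *Col6a1* by 0.28. Of 6 pairs of member genes that are adjacent in that order, 3 were lower together, namely the 2 above and *Col6a1* with *Col6a2*. No share over all adjacent gene pairs is given, so the count describes these pairs only.

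Among other collagens, *Col8a1* (1393891_at), a short-chain collagen of vessel walls, had -0.07, -0.97 and -0.31 in males at 10, against 1.12, 1.26 and 1.58 in males at 0 (-1.77 ± 0.36, 0.293-fold, adjusted p 0.00219). It had been lower at 1 µg/kg/day too, by -1.46 ± 0.36, although that call was lost on leaving out any 1 array of the groups at 0 and at 1. *Col7a1* (1374226_at), the anchoring-fibril collagen of stratified epithelium, had 0.63, 0.71 and 0.27 in males at 10, against -0.54, -0.37 and -0.26 in males at 0 (0.92 ± 0.16, adjusted p 0.000562). *Col26a1* (1372161_at) had -0.06, 0.27 and 0.21 in males at 10, against -0.57, -0.48 and -0.41 in males at 0 (0.63 ± 0.19, adjusted p 0.0298). *Col13a1*, a transmembrane collagen, rose by 0.84 ± 0.25. *Col7a1* is made by keratinocytes, whose markers rose in 9 of 16 probe sets in males at 10, with list means of 1.04 to 2.22 there, against -0.40 to -0.26 in males at 0. Their part in the *Col7a1* increase was not tested.

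Of the 21 probe sets for non-collagen proteins, 5 rose and 4 fell. Fibronectin (*Fn1*, 1370234_at), the adhesive protein of provisional matrix, had 0.27, 0.13 and 0.18 in males at 10, against -0.26, -0.28 and -0.13 in males at 0 (0.42 ± 0.10, adjusted p 0.00649). Thrombospondin-2 (*Thbs2*, 1385751_at), which restrains vessel growth, had 0.86, 0.43 and 0.35 in males at 10, against -0.13, -0.31 and -0.23 in males at 0 (0.77 ± 0.16, adjusted p 0.00286). Periostin (*Postn*, 1373911_at), which links fibrils to cells, had 0.16, 0.17 and 0.09 in males at 10, against -0.12, -0.12 and -0.09 in males at 0 (0.25 ± 0.06, adjusted p 0.00901). *Loxl1*, an enzyme that crosslinks elastin, rose by 0.41 ± 0.13. None of these 4 genes overlapped between the 2 male groups.

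Decorin, SPARC and lysyl oxidase moved the other way. *Dcn* (1370956_at) had -0.10, -0.23 and -0.21 in males at 10, against 0.13, 0.17 and 0.23 in males at 0 (-0.36 ± 0.09, adjusted p 0.00793). *Sparc* (1367562_at), a collagen-binding secreted protein, had -0.06, -0.29 and -0.20 in males at 10, against 0.18, 0.19 and 0.23 in males at 0 (-0.38 ± 0.10, adjusted p 0.0132), and its second probe set fell by 0.24. *Lox* (1368171_at), which crosslinks collagen and elastin, had 0.06, -0.47 and -0.27 in males at 10, against 0.15, 0.25 and 0.47 in males at 0 (-0.52 ± 0.17, adjusted p 0.0406). The groups of these 3 genes did not overlap, but the *Lox* call was lost on leaving out any 1 of 5 arrays. *Lox* also lost it with only the groups compared (limma adjusted p 0.0685) and with the beta-actin covariate (adjusted p 0.422). Quantile normalization took the calls of *Lox* (adjusted p 0.0969), both *Sparc* probe sets (0.0511 and 0.0597) and the second *Col1a2* probe set, 1370155_at (0.0642). The second *Sparc* probe set was lost with only the groups compared (adjusted p 0.0792). The type I collagen, *Dcn* and *Sparc* calls were also lost with the beta-actin covariate, with the tissue marker covariates and without the arrays rich in liver transcripts, and the type I calls with only the groups compared. The differences kept their sign: *Dcn* was -0.28 with the tissue markers and -0.31 without those arrays, and *Sparc* 1367562_at was -0.26 and -0.36.

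Lumican, biglycan, fibrillin-1, elastin and versican were called in no comparison. *Lum* (1367749_at), the second small proteoglycan beside decorin, had 0.03, 0.16 and 0.00 in males at 10, against -0.07, 0.00 and -0.07 in males at 0 (0.11 ± 0.07, adjusted p 0.311). *Bgn* (1367594_at) had -0.04, 0.07 and 0.09 in males at 10, against 0.06, 0.00 and 0.15 in males at 0 (-0.02 ± 0.10). *Fbn1* (1387351_at), the microfibril protein, had 0.08, -0.15 and 0.07 in males at 10, against 0.10, 0.08 and 0.32 in males at 0 (-0.17 ± 0.13). The *Bgn* groups overlapped, and the *Lum* and *Fbn1* groups met at their edges, at 0.00 and 0.08. *Eln* (1388111_at) had -0.13, 0.10 and 0.00 in males at 10, against -0.24, 0.17 and 0.60 in males at 0, with overlap. *Vcan* (1388142_at), a large proteoglycan, had 0.30, 0.18 and 0.35 in males at 10, against -0.03, -0.27 and 0.03 in males at 0 (0.37 ± 0.14, adjusted p 0.0759), and 4 of its 5 probe sets were positive. Together with *Col3a1*, 14 other collagen genes had no call in any comparison: *Col4a4* and *Col4a6* of basement membranes, *Col5a2*, *Col11a1*, *Col11a2* and *Col24a1* among the fibrillar types, *Col14a1*, *Col19a1*, *Col20a1* and *Col22a1* among the fibril-associated types, and *Col8a2*, *Col10a1*, *Col23a1* and *Col25a1*. That left 20 of the 53 genes without a call in any comparison. Collagen XIV (*Col14a1*), a fibril-associated relative of collagen XII, had -0.33 and -0.19 from its 2 probe sets in males at 10 against 0 (adjusted p 0.0632 for the first).

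Lower doses changed fewer matrix genes in males. At 1 against 0, 14 of 78 probe sets were called, 8 higher and 6 lower, against 3.63% of all probe sets (1.53% higher, 2.1% lower). All 14 were also called at 10, in the same direction: *Tnc*, *Col2a1*, the 3 collagen IX chains, *Col7a1*, *Col26a1* and *Col12a1* rose, and *Col5a3*, *Col6a5*, *Col6a6*, *Col8a1* and both *Col15a1* probe sets fell. The 2 comparisons share the control arrays. Leaving out 1 array gave 5 calls without male 0 replicate 1 or male 1 replicate 9, 7 without male 1 replicate 7, 9 without male 1 replicate 8, and 11 without male 0 replicate 2 or 3. At 0.1 against 0, limma called 0 of 78, with 18 at an unadjusted p under 0.05 (0% called and 3703 at an unadjusted p under 0.05 over all probe sets). Values at the middle doses follow for some of the genes called at 10, and the dose at which a change began was not tested. *Col6a6* had 1.26, 0.53 and 0.84 in males at 0, 0.64, 0.34 and 0.23 at 0.1, and -0.27, -0.04 and -0.17 at 1, so that 0.1 overlapped 0 and 1 did not. *Col15a1* 1379345_at had 0.88, 0.58 and 0.77 in males at 0, 0.38, 0.27 and 0.33 at 0.1, and -0.17, 0.07 and -0.07 at 1, and both doses lay below the controls. *Col8a1* had 1.12, 1.26 and 1.58 in males at 0, 0.50, 0.22 and -0.02 at 0.1, and -0.19, 0.02 and -0.24 at 1. The difference of *Col8a1* at 0.1 was -1.09 ± 0.36 and did not pass (adjusted p 0.335), although its groups did not overlap. *Col9a1* had 0.30, 0.46 and 0.61 in males at 1, above the 3 arrays at 10. *Col12a1* 1370927_at had -0.11, -0.39 and -0.12 in males at 0, -0.16, -0.25 and -0.27 at 0.1, and 0.30, 0.11 and 0.22 at 1, so that 0.1 overlapped 0. Between 10 and 1 only *Col12a1* (higher), *Col15a1* and *Col6a6* (lower) were called, 3 of 78, against 0.387% of all (0.177% higher, 0.209% lower). Each of those 3 lost its call on leaving out at least 1 array.

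In females, 10 µg/kg/day changed 4 of the 78 probe sets, 1 higher and 3 lower, against 1.86% of all (0.812% higher, 1.05% lower). *Col6a6* had -0.88, -0.94 and -0.51 in females at 10, against 0.88, 0.49 and 0.49 in females at 0, without overlap, a difference of -1.40 ± 0.20 (0.38-fold, adjusted p 0.00112). *Col15a1* 1379345_at had -0.42, -0.82 and -0.21 in females at 10, against 0.75, 0.54 and 0.38 in females at 0 (-1.04 ± 0.16, adjusted p 0.0023), and 1388939_at gave -0.86 ± 0.14 (adjusted p 0.00398). *Col9a1* had 0.26, 0.21 and 0.44 in females at 10, against -0.24, -0.48 and -0.65 in females at 0 (0.76 ± 0.16, adjusted p 0.016), with the groups apart. *Col9a3* had 0.90, 0.40 and 0.49 in females at 10, against -0.23, -0.40 and -0.30 in females at 0, which missed the threshold (0.90 ± 0.24, adjusted p 0.0555). *Col6a6* was the only 1 of the 4 whose call held in every planned fit and without any 1 array.

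The lower doses gave no call in females. Limma called 0 of 78 at 1 against 0 (3 at an unadjusted p under 0.05, with 0% called over all probe sets) and 0 of 78 at 0.1 against 0 (8 at an unadjusted p under 0.05, again 0% of all). Over all probe sets, 847 at 1 and 3083 at 0.1 had an unadjusted p under 0.05. Between 10 and 1, 1 of 78 was called, *Col6a6* at -0.99 ± 0.20 (adjusted p 0.0426), against 0.267% of all (0.184% higher, 0.0838% lower). That call was lost with only the groups compared (adjusted p 0.155) and without female 1 replicate 7, 8 or 9 or female 10 replicate 10 or 11 (differences of -1.05 to -0.91, adjusted p 0.0624 to 0.214). With arrays weighted by quality, females at 0.1 against 0 gave 9 calls.

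The difference between genders in the effect of 10 µg/kg/day was called for 3 of 78 probe sets, all larger in males, against 1.28% of all (0.525% higher, 0.754% lower). *Tnc* gave 3.11 ± 0.54 (adjusted p 0.012), *Col26a1* 1.16 ± 0.27 (adjusted p 0.039) and *Col12a1* 1370927_at 0.70 ± 0.16 (adjusted p 0.0341). *Col26a1* had -0.43, -0.05 and -0.36 in females at 10, against 0.33, 0.00 and 0.44 in females at 0, a female difference of -0.54 ± 0.19 that was not called (adjusted p 0.183). *Col12a1* had 0.04, 0.02 and 0.24 in females at 10, against -0.21, -0.11 and -0.46 in females at 0 (0.36 ± 0.11, adjusted p 0.116). Leaving out 1 of the 12 arrays at a time, *Tnc* kept its call each time, *Col12a1* lost it in 11 cases (0.61 to 0.81, kept without female 0 replicate 3) and *Col26a1* in 10 (1.07 to 1.29, kept without female 10 replicate 11 or male 10 replicate 10). Quantile normalization also took the calls of *Col26a1* (1.14, adjusted p 0.0883) and *Col12a1* (0.67, adjusted p 0.126). The *Tnc* call was lost with quantile normalization (2.67, adjusted p 0.0899) and with the beta-actin covariate (2.8, adjusted p 0.208). *Col8a1* (-1.64 ± 0.50, adjusted p 0.0999), *Lox* (-0.74 ± 0.24, adjusted p 0.118) and *Col6a6* (-0.72 ± 0.28, adjusted p 0.181) did not pass. Some other fits also called gender differences below 0 at 10. Array weights gave 4 higher and 19 lower, and fits of only the groups compared gave 2 higher and 1 lower. A fit with the replicate number as a block gave 3 higher and 1 lower. At 1, 0 of 78 were called (24 at an unadjusted p under 0.05), against 0.0483% of all (0.0451% higher, 0.00322% lower), and at 0.1, 0 of 78 (15 at an unadjusted p under 0.05), against 0% of all. Over all probe sets, 3059 at 1 and 2266 at 0.1 had an unadjusted limma p under 0.05 for this difference.

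**Figure D4:**
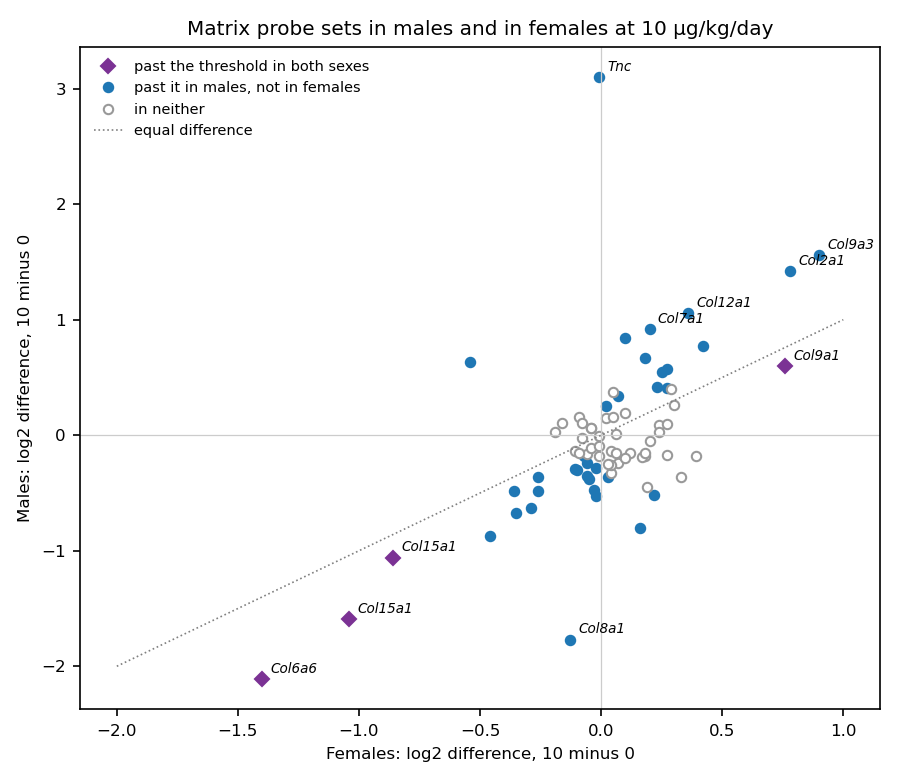
Male against female dose differences at 10 against 0 µg/kg/day, in log2 units, for each matrix probe set, with females on the horizontal axis; diamonds passed the threshold in both genders, filled circles in males but not females, open circles in neither, and the dotted line marks equal differences. Tnc stands at 3.10 in males with -0.01 in females, while Col6a6 and both Col15a1 probe sets are low on both axes.

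Of the 78 probe sets, 51 (65.4%) had the same sign in males and females at 10, against 16636 of 31042 (53.6%) over all, and the Pearson correlation across probe sets was 0.62 for the set and 0.20 for all. Males and females share no arrays, but the probe sets of a gene and the cell composition of a gland tie these points together, so the correlation describes the data only.

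Genes that act on matrix were read from lists of the same pathway. The shares over all probe sets, against which these counts and the marker counts stand, are 7.81% higher and 9.64% lower in males at 10 and 0.812% higher and 1.05% lower in females at 10. Of 33 probe sets for collagen processing enzymes, 2 rose and 14 fell in males at 10 (median -0.27, against -0.005 over all), and 0 were called in females at 10. *Plod2*, which hydroxylates lysines for crosslinks, rose by 1.07 ± 0.16, while *Bmp1*, the enzyme that cuts procollagen ends, fell by 0.72 and *Colgalt1*, which glycosylates collagen, fell by 0.70. The male decrease of *Bmp1* was larger than the female difference by -0.82 ± 0.17 (adjusted p 0.0255). Matrix receptors gave 8 higher and 6 lower of 36 in males at 10, among them *Sdc1*, a proteoglycan receptor of epithelium, at 1.91 ± 0.31, and *Cd36*, a thrombospondin and fatty acid receptor, at -1.59 ± 0.25, and 1 higher (*Itga8*, 0.97 ± 0.24) in females. TGF-β signalling genes gave 3 higher and 1 lower of 29 in males and 1 higher (*Tgfb3*, 1.13 ± 0.25) in females; the male counts were close to or below the shares over all probe sets.

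Other matrix proteins gave 8 higher and 13 lower of 47 in males at 10, with *Smoc2* at 2.07 ± 0.27, *Spon2* at 1.44 ± 0.18, *Spon1* at 1.25 ± 0.14 and *Smoc1* at -1.57 ± 0.16. In females 2 were higher and 1 lower, among them *Nid2*, a basement membrane linker, at -0.89 ± 0.16. Fibroblast markers gave 1 higher and 4 lower of 23 in males and 0 called in females, with *Dpt* (dermatopontin) at -0.90 ± 0.13 and *Sfrp2* at 1.19 ± 0.31 in males.

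Markers of other tissue moved in the same comparison. White adipocyte markers fell in 24 of 31 probe sets in males at 10 and 15 of 31 in females, and rose in 0. Endothelial markers gave 2 higher and 12 lower of 20 in males and 0 higher and 3 lower in females, and mast cell markers fell in 9 of 12 and 6 of 12. Luminal epithelial markers rose in 7 of 25 in males and 3 of 25 in females, and basal markers gave 7 higher and 1 lower of 28 in males and 2 higher in females. Hepatocyte markers gave 7 lower of 25 in males and 4 lower in females, skeletal muscle 2 lower of 38 in males and 0 in females, keratinocyte 0 called in females, macrophage 0 of 12 in males and 1 higher in females. The skeletal muscle mean varied widely between arrays, from -3.03 (female 0 replicate 1) to 2.10 (female 0.1 replicate 4). The median difference of that list at 10 against 0 was -0.80 in males and 1.54 in females. The bone, B cell and T cell lists gave 0 calls in both. Even so, the median difference at 10 against 0 was 1.87 in males and -0.80 in females for the B cell list. For the T cell list it was 1.35 and -0.63. At 1 against 0 in males, luminal markers rose in 13 of 25 probe sets and fell in 0. Basal markers gave 8 higher and 1 lower of 28 there, and white adipocyte markers fell in 15 of 31 and rose in 0. The shares over all probe sets in that comparison were 1.53% higher and 2.1% lower. The part of these cell types in the matrix changes was not tested; a fit with the white adipocyte mean as a covariate, added after the data were seen, called 0 of the 78 in males at 10, but that mean differed between the dose groups without overlap and so takes up the dose.

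**Figure D5:**
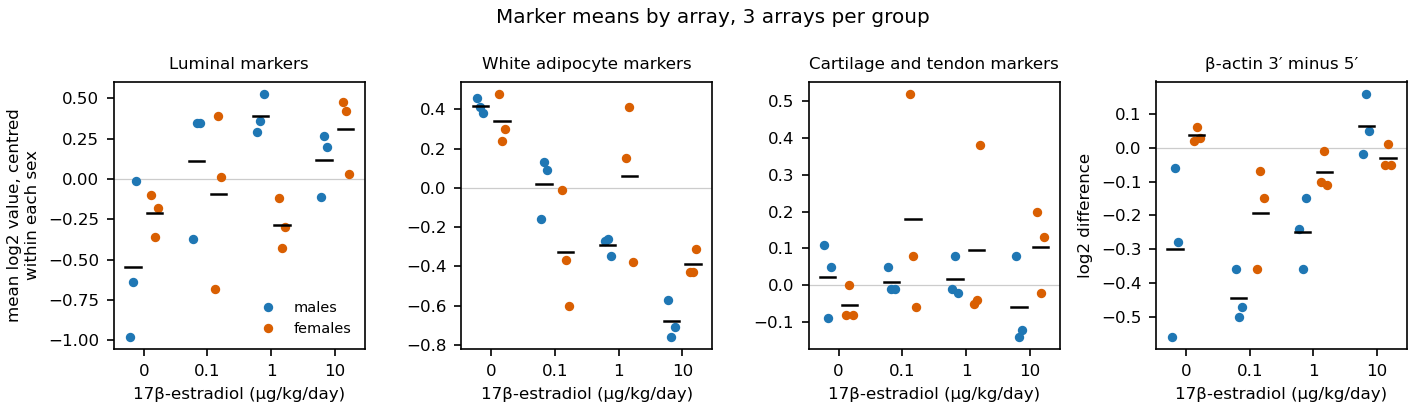
Mean log2 value of marker lists on each array against estradiol dose in µg/kg/day, taken as centred within each gender, for males and females, with group means as black bars, and in the last panel the difference between 3′ and 5′ beta-actin probe sets. White adipocyte means lie between -0.76 and -0.57 in males at 10, against 0.38 to 0.46 in males at 0, and the cartilage list stays between -0.14 and 0.11 in these 2 groups.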

How the data were processed

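Total RNA of 24 gland samples was hybridised to Affymetrix arrays. The deposited table holds signed log values, taken here as log2. The submitters' processing notes name GCOS, the Affymetrix software, and nothing of its role. Neither log base, summarization nor normalization is given in the sources used here. Of 31099 probe sets, 57 controls were left out. Apparent centring within each gender was read from the values: the smallest positive and negative values had the same size within 2e-06 in 45.7% of probe sets over female arrays and 42.3% over male arrays. The other probe sets did not show this.

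By the platform annotation 20826 probe sets had 1 gene, 436 several and 9780 none. All 78 member probe sets matched RefSeq by gene number. Groups came from the titles. limma 3.58.1 under R 4.3.3 fitted 8 group means (16 residual and 2.95 prior degrees of freedom), with Benjamini-Hochberg adjustment over 31042 probe sets; the procedure was tested on simulated data. Comparisons were each dose against 0, 10 against 1, and the male difference minus the female. Planned comparisons of level between genders were not made, because of the apparent centring.

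The members, lists and tests were chosen with earlier results of these data known. Values by array were given for a preset group of common matrix genes and for called probe sets, up to the 20 smallest p in a comparison. The 7 called members outside that rule, *Col13a1*, *Col18a1*, *Col4a2*, *Col5a1*, *Col6a1*, *Col6a3* and *Loxl1*, were named after their values were seen. Of each list, up to 4 called genes were named. Alternatives were quantile normalization, fits of only the groups compared, array weights, covariates (beta-actin, tissue markers, cartilage and white adipocyte means, the last 2 added after the data were seen), gene means, a replicate block, and leaving out arrays. The tissue marker covariates were the hepatocyte and skeletal muscle list means. The number of arrays limits the precision.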

Additional observations from a re-analysis of the deposited data

Results flagged for a closer look

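In 3 matrix probe sets the response to 10 µg/kg/day differed between the genders by a test of the difference itself, limma's interaction term with Benjamini-Hochberg adjustment over all probe sets. The male difference from 0 exceeded the female difference by 3.11 for *Tnc* (adjusted p 0.012), by 1.16 for *Col26a1* (adjusted p 0.039) and by 0.70 for *Col12a1* 1370927_at (adjusted p 0.0341). For *Tnc* all 3 males at 10 lay above all 3 males at 0, and the female groups overlapped. For *Col12a1* the other 2 probe sets gave -0.05 and -0.16. The difference between 3′ and 5′ beta-actin was -0.02 to 0.16 in males at 10, against -0.56 to -0.06 in males at 0. With that difference as a covariate 0 of the 3 kept their call, but the values were 2.8 for *Tnc*, 0.99 for *Col26a1* and 0.83 for *Col12a1*, and the part of RNA quality was not otherwise tested. Quantile normalization also removed the 3 calls (2.67, 1.14 and 0.67). Leaving out 1 of the 12 arrays at a time, *Tnc* kept its call each time, *Col26a1* lost it in 10 cases and *Col12a1* in 11.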

How the results depend on the processing

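Counts are of matrix probe sets called; a dose alone means that dose against 0. The cause of the shifts below was not tested, except that leaving out arrays reduces the sample.

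Quantile normalization gave 1 call in males at 10 against 1, 3 in females at 10 against 1 and 0 in the gender difference at 10. Fits of only the groups compared gave 1 in females at 10 against 0 and 0 in females at 10 against 1. Array weights gave 3 in males at 0.1, 9 in males at 10 against 1, 8 in females at 10, 9 in females at 0.1, 2 in females at 10 against 1, 23 in the gender difference at 10 (4 higher, 19 lower) and 3 at 1. The beta-actin covariate gave 8 in males at 10, 6 in males at 0.1, 0 in males at 10 against 1 and 0 in the gender difference at 10. Tissue marker covariates gave 17 in males at 10 (11 higher, 6 lower) and 7 in females at 10. Without the arrays with liver transcripts there were 18 in males at 10 (11 higher, 7 lower), 1 in males at 0.1, and 1 in the gender difference at 10 and at 1. Gene means gave 1 in males at 10 against 1, 1 in females at 0.1 and 1 in the gender difference at 10. The cartilage covariate gave 3 in females at 10 against 1. The white adipocyte covariate gave 0 in males at 10, at 1 and at 10 against 1, 0 in females at 10 and at 10 against 1, and 1 in the gender difference at 10, and turned *Col26a1* in males at 10 to -0.20 (adjusted p 0.999).

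Leaving out 1 array gave 25 to 35 calls in males at 10, 5 to 11 in males at 1, 0 to 1 in males at 0.1, 0 to 3 in males at 10 against 1, 3 to 4 in females at 10, 0 to 1 in females at 0.1, 0 to 3 in females at 10 against 1, and 1 to 4 and 0 to 1 in the gender difference at 10 and 1. Of the 31 named probe sets called in males at 10, 24 kept their call without any 1 array and 7 in every planned fit as well: *Tnc*, *Col12a1* 1370927_at, both *Col15a1*, *Col6a6*, *Col9a2* and *Col9a3*. Male and female arrays share replicate numbers, but the labels name nothing they share. The correlations of same-numbered arrays were 0.44 to 0.59 at 0.1, 0.45, 0.56 and -0.25 at 10, and all below 0 at 0 and 1, so the numbers were not taken to pair the arrays. With the replicate as a block the gender difference at 10 gave 4 calls.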
